A study of Mus musculus with 24 samples.

Results

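The regions described here carried H3K9ac, acetylated lysine 9 of histone H3, in every library but were reported as more separate peaks by the libraries of spheroids carrying a scramble guide than by the other libraries. They were chosen by the measured values themselves: overlapping peaks of the 12 H3K9ac peak lists on chromosomes 1 to 19 and X were merged into 38586 regions, 12098 of these held a peak of all 12 libraries, and a region was kept where its mean number of peaks in the 3 scramble libraries exceeded the mean of the 9 others by 1 or more. This rule kept 1750 regions, called members below, which is 14.5% of the regions called in all 12 libraries. Because the rule used scramble against the rest, every difference between scramble and the other groups in these regions is given as a description without a test.

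The cells were 4T1, a mouse mammary carcinoma line that spreads to the lung, grown as spheroids and collected after 5 days. All cells carried a doxycycline-inducible Cas9 and a selected guide vector. Scramble cells held a non-targeting guide against EGFP, CPT1a_KO cells a guide against the carnitine palmitoyltransferase through which mitochondria take up long-chain fatty acids, and KAT2a_KO cells a guide against the lysine acetyltransferase 2a. Scramble, CPT1a_KO and KAT2a_KO spheroids received 75 µM palmitate, and a further group of CPT1a_KO spheroids, CPT1a_KO_acetate, received 5 mM acetate. The labels name no palmitate for the acetate group, although a figure legend of the study describes CPT1a-inhibited spheroids, acetate added or not, as grown with it. The labels also do not say which of the guides to a gene a library carries or whether the 3 replicates of a group were separate cultures, so p-values below measure only the spread between these libraries. The 12 input libraries were not analysed here.

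H3K9ac is deposited by acetyltransferases that include KAT2A and its paralog KAT2B, and is found on the nucleosomes that flank the transcription start site (TSS) of active genes and on active enhancers. The start site itself is usually held free of nucleosomes, so that signal for a histone mark tends to form a shoulder on each side with a dip between them. A peak caller reports such a place as 1 peak when the dip stays above its threshold, and as separate peaks when it falls below.

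The lists held 16212 to 34370 peaks. All 12 shared the same narrowest peak of 200 bp and the same smallest distance between neighbouring peaks of 52 bp. The files state no read depth, so a calling depth, the average number of fragments over a genomic base at the time of peak calling, was recovered from the fold enrichments and p-values. It was 1.87 to 2.52 in scramble and 0.554 to 1.91 in the 9 others, and peaks per member are set beside it further on, together with values at an equal depth. Of 10 mammary epithelial marker genes, 9 had a promoter peak in all 12 libraries, and Epcam and Krt8 lay in members. Of 14 leukocyte, endothelial and fibroblast markers, 12 had no promoter peak in any library, Ptprc, Pecam1 and Col3a1 among them, and Cd14 and Pdgfra had one in all 12. The promoter region of Cpt1a was itself a member, with 2, 4 and 4 peaks in scramble, 3, 2 and 2 in CPT1a_KO, 3, 3 and 2 in CPT1a_KO_acetate and 2, 1 and 1 in KAT2a_KO. That of Kat2a was not. A promoter peak does not check either deletion.

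Parts of the members differed in sequence, and 2 kinds are shown here because most members, though not all, held at least 1 of them. A scramble gap was a stretch of at least 50 bp that lay between peaks in each of the 3 scramble libraries and was covered by no peak of any of them. The 6 gaps below, of 54 that met the limits set for printing, were covered by a peak over their whole length in all 9 other libraries. They are read 5′ to 3′ on the plus strand of GRCm38, with CpG dinucleotides in capitals.
Kctd15, chr7:34630944-34631002: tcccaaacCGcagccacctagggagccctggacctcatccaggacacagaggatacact
Foxo3, chr10:42278127-42278280: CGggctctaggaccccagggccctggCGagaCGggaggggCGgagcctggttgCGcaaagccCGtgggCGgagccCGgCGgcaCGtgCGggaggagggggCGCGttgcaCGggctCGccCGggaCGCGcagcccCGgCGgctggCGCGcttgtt
Klf16, chr10:80577338-80577507: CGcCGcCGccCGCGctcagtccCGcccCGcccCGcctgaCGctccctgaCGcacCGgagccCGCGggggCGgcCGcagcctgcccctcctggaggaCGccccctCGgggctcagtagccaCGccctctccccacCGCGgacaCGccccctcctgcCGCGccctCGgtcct
Nfatc3, chr8:106059427-106059626: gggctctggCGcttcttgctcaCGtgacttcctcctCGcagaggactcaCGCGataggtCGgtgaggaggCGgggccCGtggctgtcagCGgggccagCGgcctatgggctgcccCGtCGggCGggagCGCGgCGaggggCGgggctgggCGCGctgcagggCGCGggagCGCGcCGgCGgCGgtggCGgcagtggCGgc
Hnrnpl, chr7:28811374-28811481: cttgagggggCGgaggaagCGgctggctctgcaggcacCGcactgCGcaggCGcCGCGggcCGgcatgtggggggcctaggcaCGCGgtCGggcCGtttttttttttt
Rc3h1, chr1:160906178-160906380: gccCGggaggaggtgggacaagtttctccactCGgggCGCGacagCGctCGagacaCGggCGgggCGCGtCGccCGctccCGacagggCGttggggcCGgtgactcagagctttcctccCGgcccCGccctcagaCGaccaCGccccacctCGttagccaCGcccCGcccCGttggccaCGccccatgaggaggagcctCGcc

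The gap near Kctd15, which encodes a BTB domain protein, lay 21835 bp downstream of the nearest annotated TSS, between genes, and held 1 CpG in its 59 bp. The other 5 lay in members at promoters. Gaps that overlapped an annotated exon were left out of the choice. The gap of Klf16, a zinc finger transcription factor, ended 17 bp upstream of a TSS and held 24 CpGs in 170 bp. The gap of Nfatc3, a calcium-regulated transcription factor, ended 7 bp upstream of a TSS and held 28 CpGs in 200 bp. The gap of Rc3h1, the RNA-binding ubiquitin ligase roquin, ended 38 bp upstream of a TSS and held 25 CpGs in 203 bp. Foxo3, a forkhead transcription factor restrained by Akt, had its gap 1372 bp upstream, with 22 CpGs in 154 bp. Hnrnpl, which binds pre-mRNA, had its gap 437 bp downstream of the TSS in an intron, with 12 CpGs in 108 bp. The GC content of these 5 ran from 69.4% to 81.2%, and that of the Kctd15 gap was 59.3%.

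A scramble-only segment was a stretch of at least 100 bp that was covered by a peak in all 3 scramble libraries and in none of the 9 others. The 3 below belong to the members with the largest differences that had a printable segment of 200 to 300 bp outside exons. This choice was made after the values were seen.
Lrp1, chr10:127617968-127618217: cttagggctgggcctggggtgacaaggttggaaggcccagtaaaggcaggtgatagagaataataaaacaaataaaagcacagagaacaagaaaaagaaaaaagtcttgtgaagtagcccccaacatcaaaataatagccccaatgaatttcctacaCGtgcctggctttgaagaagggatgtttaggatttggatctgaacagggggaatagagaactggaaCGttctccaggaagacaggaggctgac
Fbxw7, chr3:84817365-84817660: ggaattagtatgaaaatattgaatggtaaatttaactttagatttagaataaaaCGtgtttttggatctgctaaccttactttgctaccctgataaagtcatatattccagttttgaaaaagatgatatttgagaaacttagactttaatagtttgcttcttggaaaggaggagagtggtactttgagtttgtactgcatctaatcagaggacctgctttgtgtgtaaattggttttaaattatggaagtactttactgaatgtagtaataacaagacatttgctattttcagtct
Synpo2l, chr14:20662946-20663244: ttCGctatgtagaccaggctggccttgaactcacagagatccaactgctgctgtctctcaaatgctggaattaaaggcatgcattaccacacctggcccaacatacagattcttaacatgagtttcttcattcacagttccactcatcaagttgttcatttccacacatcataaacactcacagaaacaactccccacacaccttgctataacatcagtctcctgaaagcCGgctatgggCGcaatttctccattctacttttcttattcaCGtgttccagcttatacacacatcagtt

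These segments lay downstream of the TSS and inside the gene, 2705 bp away in Lrp1, 2097 bp in Fbxw7 and 1330 bp in Synpo2l. Their GC content was 44.8%, 30.7% and 43.5%, and they held 2, 1 and 4 CpGs. The gaps and the segments thus sat at opposite ends of base composition, and both are counted over all members further on.

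A member held on average 2.16, 2.84 and 2.95 peaks in the 3 scramble libraries. In the same regions it held 1.16, 1.22 and 1.33 peaks in CPT1a_KO, 1.37, 1.63 and 1.36 in CPT1a_KO_acetate and 1.28, 1.24 and 1.43 in KAT2a_KO. Scramble replicate 1 stood apart from its group, with 1 peak in 20.5% of the members against 3.83% and 2.23% in replicates 2 and 3. Outside scramble, 53.0% to 86.5% of the members held 1 peak. Over all 12098 regions the share with 1 peak was 61.3%, 43.0% and 40.9% in scramble and 59.3% to 82.6% in the 9 others, a range close to that of the members. In the 10348 other regions called in all 12 libraries the means were 1.36, 1.66 and 1.69 in scramble and 1.23 to 1.56 in the rest, so scramble replicate 1 lay within the range of the 9 others there while replicates 2 and 3 lay above it.

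**Figure D1:**
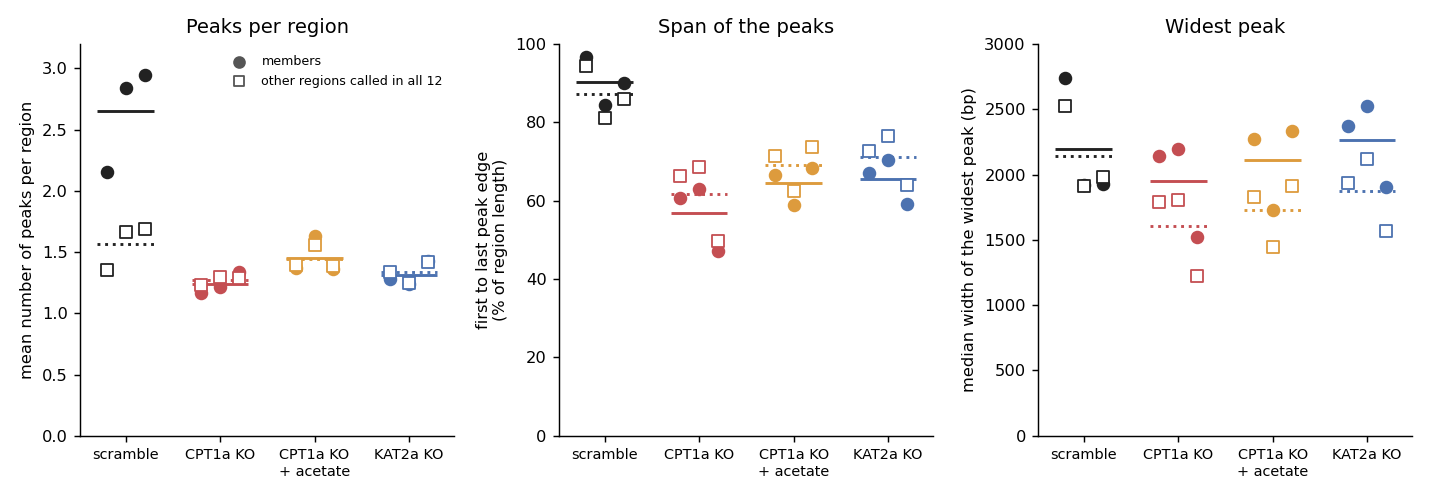
Mean number of peaks per region, length from the first to the last peak edge as a percent of region length, and median width in bp of the widest peak, for each of the 12 libraries by group. Filled circles are the 1750 members, open squares the other regions called in all 12 libraries, and lines are group means (solid for members, dotted for the others). In members the scramble means of 2.16 to 2.95 peaks lie above all others, which reach 1.63, while the widest peaks overlap between the groups.

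The margin of the rule was small for most members. The difference was exactly 1.00 in 495 members, its median was 1.22 and its largest value was 3.89. A further 501 regions had a difference of 0.89, the next value below the threshold. In 335 members every scramble library held more peaks than any of the 9 others, which is 19.1% of the members and, since no other region had this pattern, 2.77% of the regions called in all 12 libraries. Each scramble library alone exceeded the mean of the 9 others by 1 or more in 721, 1310 and 1378 members, or 41.2%, 74.9% and 78.7%, against 10.6%, 23.5% and 26.1% of all regions. All 3 did so in 419 members, 2 of them in 821 and a single one in 510, or 23.9%, 46.9% and 29.1% of the members against 3.46%, 12.1% and 25.7% of all regions. The opposite pattern, a mean of the 9 others above scramble by 1 or more, was found in 94 regions, or 0.777%.

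Set against each other group by itself, scramble was higher by 1 or more peak in 1729 members against CPT1a_KO, in 1524 against CPT1a_KO_acetate and in 1675 against KAT2a_KO. The share of all 12098 regions past the same difference was 23.4%, 15.5% and 20.8%. These comparisons share the scramble libraries and were used by the rule, so nothing is read from their agreement.

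The extra peaks had more than one form. In each pair of a scramble library and another library, scramble peaks that overlapped no peak of the other library were counted as added, and the remaining excess as split, each net of the reverse. Over the 27 pairs a member gained 1.31 peaks, of which 0.741 were added and 0.573 split, or 56.4% and 43.6%. Added peaks prevailed in 976 members and split peaks in 741, with the same number of each in 33. In the other regions the excess of 0.220 peaks was 78.6% added and 21.4% split. A split excess of 1 or more was found in 293 members (16.7%) and in 5 of the 10348 others, and an added excess of 1 or more in 541 members (30.9%) and 120 others, both limited by the rule in the others. The name of split regions thus covers only part of the members' excess. Pooled over pairs, the split part was a larger share of it in members than elsewhere, but the libraries differed in this. Scramble replicate 1 gave 0.499 to 0.600 added and 0.175 to 0.344 split peaks per member against the 3 groups. Replicate 2 gave 0.740 to 0.904 and 0.626 to 0.788, and replicate 3 gave 0.817 to 0.976 and 0.651 to 0.815. In the other regions replicate 1 had a negative split part, -0.207 to -0.0615 per region. There replicate 2 gave 0.145 to 0.239 added and 0.0586 to 0.184 split, and replicate 3 gave 0.182 to 0.268 and 0.0507 to 0.175.

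The peaks of the scramble libraries also reached further. From the first to the last peak edge they spanned 96.6%, 84.3% and 90.0% of the summed length of the members, against 60.6%, 62.9% and 47.2% in CPT1a_KO, 66.7%, 58.8% and 68.4% in CPT1a_KO_acetate and 67.2%, 70.4% and 59.2% in KAT2a_KO. The 2 sets of values did not overlap. Wider span in scramble was not particular to the members, since in the other regions it was 81.2% to 94.4% in scramble and 49.7% to 76.4% in the rest. The widest peak of a member had a median width of 2740, 1917 and 1931 bp in scramble and 1520 to 2527 bp in the 9 others, so widest peaks of the groups overlapped. In scramble, 14.6%, 17.6% and 20.3% of the peaks in members overlapped no peak of any of the 9 other libraries. Those peaks were short and weak, with median widths of 378, 265 and 332 bp and median fold enrichments over local background of 4.54, 4.53 and 4.67, against 11.7, 9.99 and 9.31 for the remaining peaks. In the other regions 3.85%, 6.52% and 8.39% of scramble peaks overlapped none of the 9 others, with fold enrichments of 4.52, 4.53 and 4.67.

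Rps19, which encodes a protein of the small ribosomal subunit, had the largest difference, 3.89 peaks. Its region on chromosome 7 (24883221 to 24890498) held 3, 5 and 9 peaks in scramble, 1, 2 and 1 in CPT1a_KO, 2, 2 and 2 in CPT1a_KO_acetate and 1, 3 and 2 in KAT2a_KO. Scramble replicate 3 supplied most of the excess, and replicate 1 did not exceed KAT2a_KO replicate 2. Lrp1, a large endocytic receptor, held 4, 5 and 6 peaks in scramble against 1 to 3 elsewhere, on chromosome 10 (127616205 to 127623188). Fbxw7, the substrate receptor of a ubiquitin ligase that degrades cyclin E and Myc, held 5, 3 and 5 peaks in scramble against 1 or 2 elsewhere, on chromosome 3 (84811279 to 84818466). For both of these genes all scramble libraries lay above all others, and both differed by 3.11 peaks, of which 1.96 and 2.33 were added.

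Synpo2l, which encodes an actin-associated protein of muscle, was represented by a region in its gene body that held 4, 3 and 5 peaks in scramble and 1 or 2 in every other library. Mink1, a kinase of the Ste20 family, held 3, 6 and 4 peaks in scramble and 1 to 3 in the rest. A region in the body of Lsm4, a subunit of an RNA-binding complex in splicing and mRNA decay, held 6, 5 and 4 peaks in scramble and 1 to 4 in the rest, so that scramble replicate 3 equalled KAT2a_KO replicate 1. Gsap, the gamma-secretase activating protein, and the intergenic region near Kctd15 gave the cleanest pattern: both held 4, 3 and 4 peaks in scramble and exactly 1 in all 9 others. At Gsap 1.89 of the 2.67 extra peaks were added, and near Kctd15 2.04 of 2.67 were split. Near Kctd15 the peaks covered 2987, 1860 and 2031 bp in scramble and 1737 to 2553 bp in the rest, with overlap between the sets. At Gsap they covered 2375, 1738 and 2302 bp in scramble and 787 to 1696 bp in the rest, without overlap.

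The other 4 of the 12 largest differences came from less even libraries. Zrsr2, a splicing factor of minor introns on chromosome X, held 1, 6 and 4 peaks in scramble and 1 in each of the others, so scramble replicate 1 looked like the rest. The region shared by Agap3, Fastk and Tmub1, 12176 bp wide, held 4, 8 and 9 peaks in scramble and 3 to 6 in the rest. That of Senp3, a SUMO protease, and Tnfsf13, a ligand of the tumour necrosis factor family, held 3, 9 and 5 in scramble and 2 to 4 in the rest. Pmepa1, a TGF-beta target that restrains Smad signalling, held 4, 7 and 7 in scramble and 2 to 5 in the rest. In these 3 regions scramble replicate 1 overlapped the other groups while replicates 2 and 3 lay above them.

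**Figure D2:**
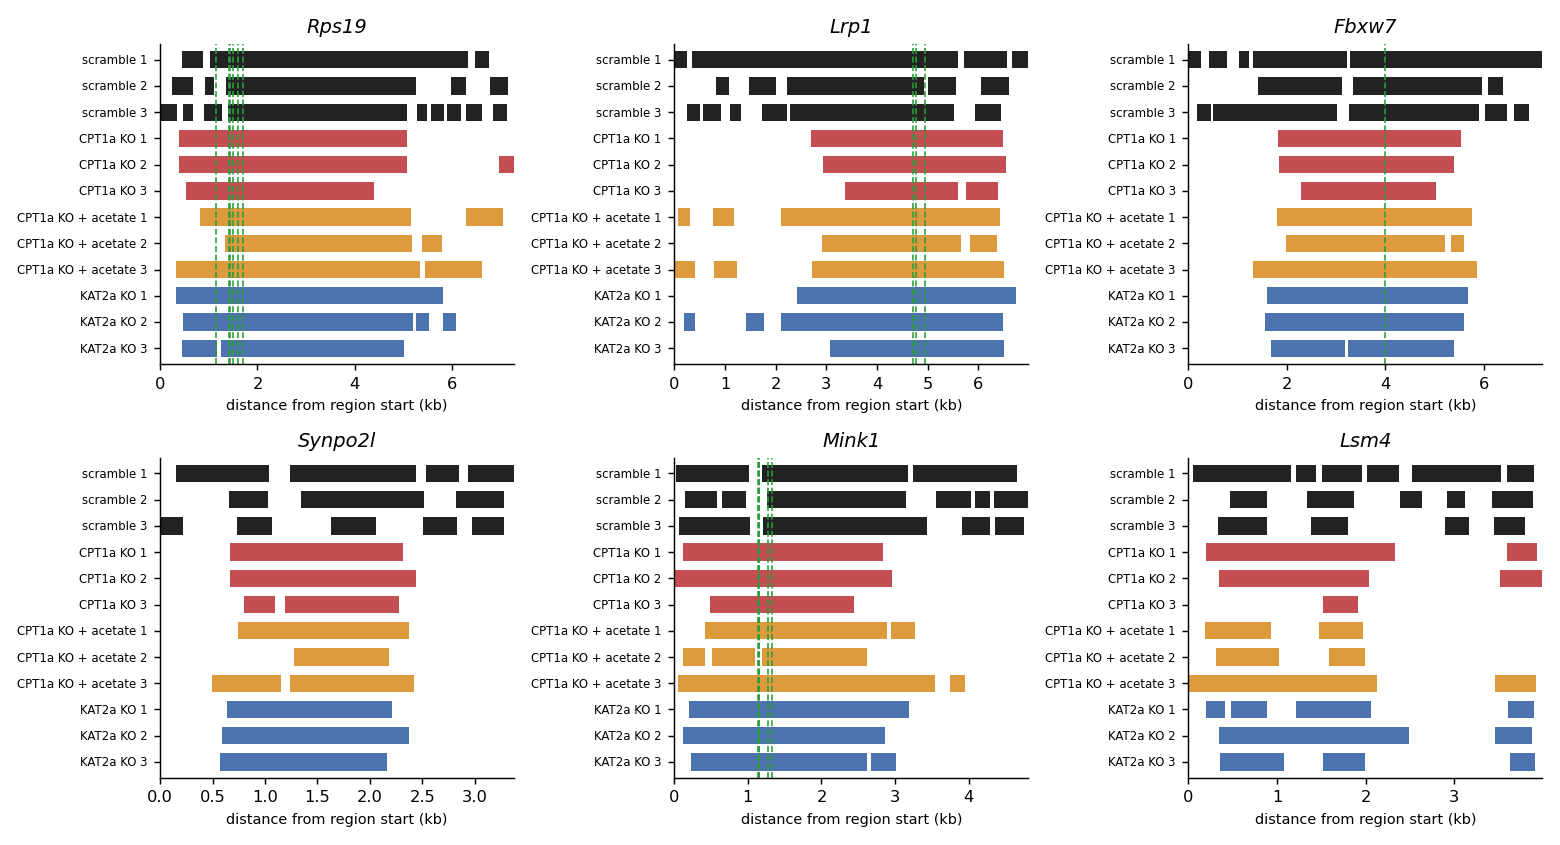
Peaks of the 12 libraries (rows, coloured by group) in the 6 members with the largest difference, drawn to scale as distance in kb from the start of each region, with annotated TSSs of protein-coding genes as dashed green lines. In Fbxw7 each scramble library shows a break upstream of the TSS and 1 or more short peaks beyond the wide blocks. The 9 others show a block of 1 or 2 peaks, and that of KAT2a_KO replicate 3 also has a break upstream of the TSS.

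The members at single promoters showed where the extra peaks and the breaks lay. Of the members, 1337 held the TSS of 1 protein-coding gene on 1 strand, and coverage by peaks was read around the most upstream of its TSSs. The lowest coverage within 500 bp of the TSS fell 75 bp upstream of it in all 3 scramble libraries, where 66.4%, 41.9% and 41.1% of these members had a peak. In the 9 others coverage was lowest at the upstream edge of that window, 475 bp before the TSS, at 56.0% to 83.5%. Nearer the TSS the lowest library of each group still had a smaller dip. It fell from 70.61% at 325 bp upstream to 65.97% at 125 bp in CPT1a_KO_acetate. In KAT2a_KO it fell from 80.48% at 275 bp to 76.29% at 125 bp, and in CPT1a_KO from 66.42% at 275 bp to 65.3% at 175 bp. The highest library of each of these groups was higher at 125 bp than at 275 bp upstream. At 175 bp upstream a peak covered 77.2%, 56.6% and 56.1% of the members in scramble, 90.9%, 90.1% and 65.3% in CPT1a_KO, 83.7%, 68.0% and 86.8% in CPT1a_KO_acetate and 90.2%, 95.1% and 78.3% in KAT2a_KO. Scramble replicate 1 thus overlapped the others at this point, while replicates 2 and 3 were below all 9.

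Away from the TSS the order was the reverse. At 1975 bp downstream 68.9%, 55.3% and 61.1% of the members were covered in scramble, against 22.1%, 24.3% and 11.2% in CPT1a_KO, 31.6%, 23.3% and 33.7% in CPT1a_KO_acetate and 31.2%, 33.7% and 20.6% in KAT2a_KO. At 1975 bp upstream the shares were 15.9%, 8.08% and 11.4% in scramble and 1.42% to 4.26% in the rest. No scramble library overlapped any other at either point. The other 7006 single promoters had the same wider flanks, with 47.1% to 58.4% covered in scramble and 10.6% to 31.5% in the rest at 1975 bp downstream. They also had the dip, with the lowest coverage in scramble at 75 or 125 bp upstream (46.5% to 64.8%). At 175 bp upstream 48.7% to 66.3% of them were covered in scramble and 47.0% to 82.9% in the rest.

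**Figure D3:**
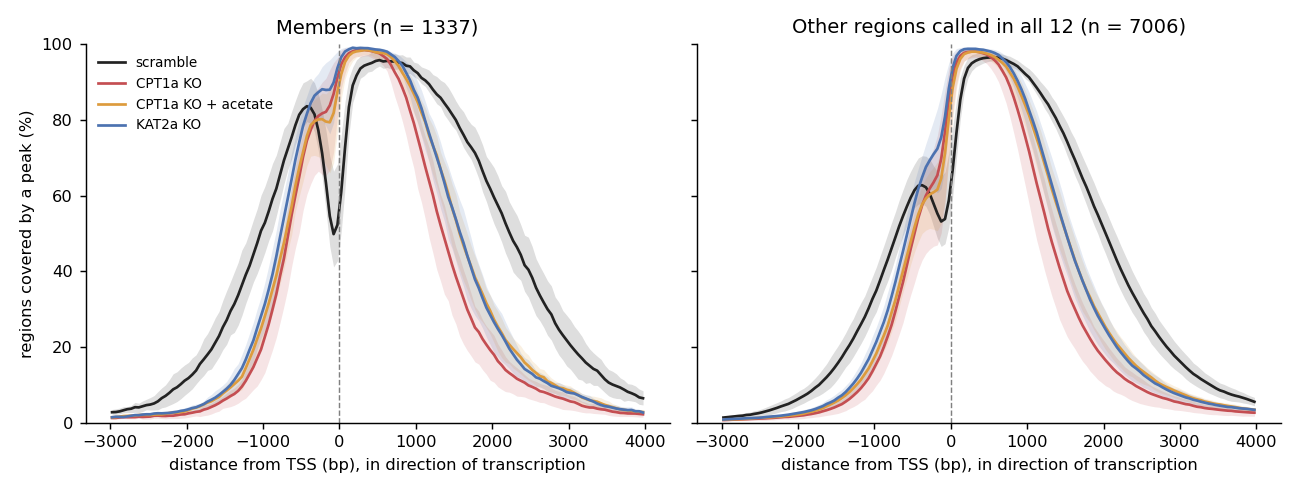
Percent of single-gene promoter regions covered by a peak against distance from the TSS in bp, in the direction of transcription, for members (left, n = 1337) and for other regions called in all 12 libraries (right, n = 7006). Lines are group means and shaded bands run from the lowest to the highest of 3 libraries. In members the scramble line dips just upstream of the TSS, where 41.1% to 66.4% are covered, and lies above the others beyond about 1 kb on both sides.

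Scramble gaps, as defined above, were found in 718 members, or 41.0%, and in 12.4% of the other regions. There were 768 of them in members, with a median length of 151 bp, and 309, or 40.2%, held an annotated TSS. Among single-gene members, 473 of 610 gaps were centred within 500 bp of the TSS and the median centre lay 52 bp upstream. A gap was covered, base by base, in a median of 7.58 of the 9 other libraries. Of the 768 gaps, 150 (19.5%) were covered over their whole length in all 9. In the other regions the median was 5.7, and 58 of 1321 gaps (4.39%) were covered whole in all 9. Scramble-only segments were found in 1083 members, or 61.9%, and in 42.2% of the other regions. There were 1729 in members with a median length of 215 bp, of which 4 held a TSS. Of 1270 in single-gene members, 1158 were centred more than 1 kb from the TSS, and 71.0% of their summed length lay downstream. The positions were much the same in the other regions, where 39.4% of the gaps held a TSS (40.2% in members), 83.8% of those at single genes were centred within 500 bp of it (77.5%), 90.2% of the segments lay beyond 1 kb (91.2%) and 76.2% of their length was downstream.

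Both features were present in 382 members, a gap alone in 336, a segment alone in 701 and neither in 331. In the last class no stretch shared by all 3 scramble libraries met either definition. Zfp292, a zinc finger gene on chromosome 4, held 4, 3 and 3 peaks in scramble and 1 in each of the others, and all of its 2.33 extra peaks were added. Zfp768 on chromosome 7 held 3, 3 and 4 against 1 in each of the others, with 1.44 of 2.33 split. Foxo3 held 4, 3 and 3 in scramble and 1 or 2 in the rest, with 1.74 of 1.89 split, and the gap printed above was shared by its 3 scramble libraries.

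The gaps and the segments differed in base composition. The core of the members, covered in all 12 libraries, had a GC content of 55.8% with 50.3 CpGs per kb. The scramble gaps had 70.7% and 107 per kb, and the scramble-only segments 39.7% and 8.29 per kb. The same order held in the other regions, at 54.2%, 67.0% and 39.3% for core, gaps and segments. GC content therefore moved with both features, and its part in the difference between scramble and the other libraries was not tested. Whole members and the other regions were much alike, with a median GC content of 50.3% and 49.8%.

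The breaks between a library's own peaks in members differed in kind between libraries. In scramble there were 2026, 3225 and 3408 of them, with a GC content of 60.7%, 56.5% and 58.6%, and 22.8%, 25.6% and 26.6% held a TSS. In the 9 others there were 284 to 1109. In CPT1a_KO their GC content was 47.3%, 47.4% and 53.6%, and 5.63%, 4.76% and 22.6% held a TSS. In CPT1a_KO_acetate it was 49.1%, 53.6% and 48.6%, and 9.61%, 19.8% and 8.57% held a TSS. In KAT2a_KO it was 47.9%, 46.4% and 52.0%, and 5.92%, 2.63% and 16.0% held a TSS. Within each of these 3 groups the library of lowest calling depth (0.554, 0.660 and 1.02) had the most TSS breaks and the highest GC content, whereas the scramble libraries combined TSS breaks with the higher depths given above. These traits were not limited to the members. In the other regions the breaks had 61.5%, 55.9% and 57.6% GC in scramble and 45.9% to 50.7% in the 9 others, and 27.1%, 25.2% and 26.4% against 3.11% to 18% held a TSS. Their number there was 3696, 6863 and 7144 in scramble and 2394 to 5767 in the rest, so scramble replicate 1 lay within the range of the others.

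Members were promoter regions more often than the rest. A protein-coding TSS lay in or within 1 kb of 1600 members, or 91.4%, against 79.2% of the other regions, and 61 members lay in gene bodies and 89 between genes. Of the promoter regions 16.3% were members, of the gene body regions 6.48% and of the intergenic regions 6.55%. Regions that held TSSs on both strands, mostly divergent gene pairs, were members in 21.0% of cases, 240 of 1143. Width mattered for the count: members had a median width of 3924 bp (975 to 23945 bp) against 3021 bp, and the share of members rose from 2.37% below 2 kb to 26.7% between 5 and 7 kb, with 78 of 433 regions at 7 kb and more. Of the regions of 5 kb or more, 24.6% were members, so 436 members belong to these broad domains. By chromosome the share was lowest on X, at 8.31%, and highest on chromosome 1, at 18.8%.

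The promoters of members were richer in CpG than those of the other regions. Over the 300 bases from 250 before to 50 after the most upstream TSS, read from GRCm38 at the GENCODE vM21 annotation, the median number of CpGs was 23 for the 1856 genes at members, 20 for the 8761 genes at other regions called in all 12 libraries and 12 for all 21646 protein-coding genes. The middle 50% of promoters ran from 57.0% to 69.7% GC at members and from 53.7% to 66.3% at the other regions. The letters GGGCGG, known as the GC box, were found on either strand in 69.5%, 63.0% and 44.2% of these promoters. CCAAT was found in 37.7%, 39.7% and 38.8%, TATAAA in 5.44%, 6.83% and 12.6%, and TGACTCA, the core of AP-1 sites, in 3.23%, 3.23% and 4.43%. None of these 4 strings contains another, and a match is only a match of letters.

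Genes of 14 lists were looked up at the members. Of the 10617 protein-coding genes with a promoter in a region called in all 12 libraries, 1856, or 17.5%, had one in a member, and the lists ran from 6.25% to 25.0% around that share. Lists were chosen with earlier results known, and no list was tested.

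Among genes of fatty acid and acetyl-CoA metabolism 9 of 42 (21.4%) were at members, among them Acaca, Acadl, Acadvl, Acat2, Cpt1a and Elovl1. Acat2, the cytosolic acetoacetyl-CoA thiolase, held 1, 4 and 4 peaks in scramble and 1 or 2 in the rest, and Elovl1, an elongase of very long chain fatty acids, held 2, 3 and 4 against 1 to 3. Among histone acetyltransferases, deacetylases and acetyl-lysine readers 8 of 60 (13.3%) were: Brd1, Hat1, Kat6b, Sgf29, Sirt1, Sirt5, Tada2a and Taf10. The promoter that Tada2a, an adaptor of KAT2-containing complexes, shares with Acaca, the acetyl-CoA carboxylase of fatty acid synthesis, held 2, 3 and 2 peaks in scramble and 1 in all 9 others. Sgf29, another subunit of those complexes, held 2, 3 and 2 against 1 or 2, and Brd1 held 2, 3 and 2 against 1 or 2.

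Of the NF-kB subunits, inhibitors and targets 4 of 31 (12.9%) were at members: Ikbkg, Nfkbia, Nfkbiz and Tnip1. Nfkbiz, an atypical IkB protein, held 2, 2 and 3 peaks in scramble, and Tnip1, which restrains NF-kB signalling with A20, held 3, 2 and 2, both against 1 peak in all 9 others. Ikbkg, the regulatory subunit of the IkB kinase, shares its promoter with Fam3a and held 1, 4 and 2 against 1 or 2. Of the AP-1 and immediate early genes 8 of 42 (19.0%) were at members, with Jund at 4, 4 and 5 peaks in scramble against 2 to 4 and the phosphatase gene Dusp5 at 2, 3 and 4 against 1 or 2. For all of these genes the margin between the lowest scramble and the highest other library was at most 1 peak.

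Of the mammary epithelial genes 4 of 32 (12.5%) were at members. Krt8, a keratin of simple epithelia, held 1, 6 and 4 peaks in scramble and 1 to 3 in the rest, Epcam, an epithelial adhesion molecule, 3, 3 and 3 against 1 to 3, and Erbb2, a receptor tyrosine kinase, 2, 3 and 3 against 1 or 2. Of the genes of epithelial-mesenchymal transition 5 of 20 (25.0%) were at members. Inhba, a subunit of activin, held 3, 3 and 4 peaks in scramble against 1 or 2, so that its groups did not overlap, while Tgfb1 held 4, 3 and 2 and Itga5, an integrin subunit, 3, 2 and 3, both against 1 or 2. The glycolysis and hypoxia list had 6 of 32 (18.8%), and Hif1a, its oxygen-regulated transcription factor, lay at 2 separate members with 2, 5 and 3 peaks against 1 or 2 and with 2, 2 and 3 against 1 in all 9 others. Egln1, a prolyl hydroxylase that marks HIF for decay, held 2, 4 and 3 against 1 or 2.

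Of the heat shock and unfolded protein response genes 7 of 34 (20.6%) were at members. Hsp90b1, a chaperone of the endoplasmic reticulum, held 3, 5 and 5 peaks in scramble and 1 to 4 in the rest, and Dnajb1, a co-chaperone of Hsp70, held 2, 3 and 4 against 1 or 2. Of the cell cycle genes 6 of 39 (15.4%) were, with the cyclin gene Ccne2 at 3, 3 and 4 against 1 to 3 and Aurkb, a mitotic kinase, at 2, 2 and 3 against 1 or 2. The cytosolic ribosomal protein genes had 9 of 91 (9.89%), among them Rps19 and Rpl7, which shares a region with Rdh10 and held 3, 4 and 4 against 1 to 3. The mitochondrial ribosomal protein genes had 11 of 78 (14.1%), with Mrpl55 at 2, 3 and 4 peaks against 1 in all 9 others. The zinc finger genes of the Zfp family had 40 of 300 (13.3%), and the homeobox, Sox, Fox, Tbx and Pax genes had 7 of 47 (14.9%), with Foxj2 at 3, 3 and 4 against 1 to 3. The replication-dependent histone genes had the lowest share, 4 of 64 (6.25%), which all lay in 1 region of 15398 bp on chromosome 3 and include near-identical copies, so that their peaks are uncertain. It held 4, 8 and 9 peaks in scramble and 3 to 7 in the rest.

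At the edge of the rule the members were not distinct. Pja1, a ubiquitin ligase gene on chromosome X, had a difference of 1.00 with 2, 3 and 3 peaks in scramble and 1 to 3 in the rest, and Mpnd had the same difference with 1, 4 and 3 against 1 to 3. The other 2 members named at this edge, 1700025G04Rik and Trpv4, held 3, 2 and 3 and 4, 5 and 4 peaks in scramble against 1 to 4 and 1 to 5. Just outside, with 0.89, Klf5 held 2, 2 and 3 peaks in scramble against 1 or 2, as did Ier2, the region of Nacc1 and Trmt1 held 2, 3 and 2 against 1 or 2, and Bcl11a held 4, 5 and 6 against 3 to 7.

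The strength of the strongest peak, which the rule did not use, was compared as a rank percentile by fold enrichment within each library among the 12098 regions. The median rank of the members was 55.3, 55.4 and 54.6 in scramble, 57.8, 57.8 and 58.9 in CPT1a_KO, 57.0, 56.8 and 56.8 in CPT1a_KO_acetate and 56.8, 57.2 and 56.9 in KAT2a_KO. Members thus ranked slightly above the middle in every library, and a little lower in scramble. The rank was lower in every scramble library than in all 9 others in 116 members (6.63%), against 5.27% of all regions, and higher in 112 (6.40%), against 8.53% of all regions. Neither share is read as a result about the members. The rank of Lrp1 was 53.4 ± 2.20 in scramble, 78.1 ± 3.49 in CPT1a_KO, 81.4 ± 14.4 in CPT1a_KO_acetate and 70.8 ± 14.3 in KAT2a_KO, and that of Gsap 37.5 ± 2.71, 19.0 ± 7.94, 20.4 ± 9.63 and 16.4 ± 10.3 (SD, n = 3 each), so regions with like numbers of peaks moved in opposite directions.

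Among the 9 libraries outside scramble, peaks per member are a description without a test, since the rule used them. They were 1.45 ± 0.156 in CPT1a_KO_acetate, 1.24 ± 0.0877 in CPT1a_KO and 1.32 ± 0.0992 in KAT2a_KO (SD, n = 3 each). All 3 acetate libraries lay above all 3 of CPT1a_KO, by 0.217 on average, and the other regions differed by 0.173 in the same direction. The difference was 0.118 without CPT1a_KO_acetate replicate 2, 0.115 at equal depth, 0.0794 with peaks within 200 bp merged and 0.0128 with peaks within 500 bp merged. KAT2a_KO overlapped both groups, with differences of 0.0781 from CPT1a_KO and -0.139 from CPT1a_KO_acetate.

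Covered share and rank, which the rule did not use, were tested between the 3 groups by two-sided exact permutation tests over libraries, which cannot give a p below 0.1 with 3 against 3. Adjustment by Benjamini-Hochberg was over 9 tests, the other 3 being those of peaks per member, which are not reported. The covered share of the member length was 54.6% ± 8.79 in CPT1a_KO, 61.3% ± 6.03 in CPT1a_KO_acetate and 63.2% ± 6.32 in KAT2a_KO (SD, n = 3 each). The differences from CPT1a_KO were 6.75 ± 6.15 and 8.59 ± 6.25 percentage points and that between the others 1.85 ± 5.04 (SE), and none exceeded the spread between libraries (exact permutation p = 0.4, 0.3 and 0.6, adjusted p = 0.514, 0.514 and 0.6). The first pair of differences fell to 1.55 and 3.48 without CPT1a_KO replicate 3, the shallowest list. In the other regions the 3 differences, in the same order, were 6.82, 9.61 and 2.79 percentage points, so they were not particular to the members. The median rank of members was 58.2 ± 0.662 in CPT1a_KO, above 56.8 ± 0.109 in CPT1a_KO_acetate and 56.9 ± 0.192 in KAT2a_KO, by 1.35 ± 0.387 and 1.24 ± 0.398 percentile points. In both cases the libraries did not overlap (exact permutation p = 0.1, adjusted p = 0.3, the smallest p this design gives). With members chosen again without single libraries, CPT1a_KO_acetate minus CPT1a_KO ran from -2.08 without scramble replicate 2 to -0.684 without scramble replicate 1. KAT2a_KO minus CPT1a_KO ran from -2.37 without scramble replicate 2 to -0.897 without CPT1a_KO_acetate replicate 3. Libraries of CPT1a_KO_acetate and CPT1a_KO overlapped when ranked by -log10 p (-0.973, exact permutation p = 0.2). They also overlapped without scramble replicate 1 and without scramble replicate 3 (exact permutation p = 0.3 in both). Between CPT1a_KO_acetate and KAT2a_KO the ranks differed by 0.114 ± 0.128 (exact permutation p = 0.5, adjusted p = 0.562).

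Over the 9 libraries outside scramble, calling depth and peaks per member had a Pearson's r of -0.652 and a Spearman's rho of -0.517, given as a description because the rule used these peak numbers. Pearson's r was -0.542 over 7 libraries, without the 2 farthest from the median depth, and ran from -0.822 without CPT1a_KO replicate 3 to -0.482 without CPT1a_KO_acetate replicate 2. Groups of 3 libraries are too small for a coefficient within a group. In CPT1a_KO, CPT1a_KO_acetate and KAT2a_KO alike, a deeper list held fewer peaks per member, which was not tested. Scramble replicates 2 and 3, at depths of 1.87 and 1.90, held 2.84 and 2.95 peaks per member, whereas CPT1a_KO_acetate replicate 3 and KAT2a_KO replicate 2, at 1.91 and 1.82, held 1.36 and 1.24. Scramble replicate 1, the deepest list at 2.52, held the fewest of its group. All lists were also thinned to an equal depth of 0.55 by dropping peaks predicted to fall below a -log10 p of 5. The rule then kept 161 regions, 127 of them members. The members held 1.29, 1.56 and 1.54 peaks in scramble and 1.06 to 1.57 in the rest, so that the groups overlapped. The overlap came from CPT1a_KO replicate 3, CPT1a_KO_acetate replicate 2 and KAT2a_KO replicate 3, at 1.33, 1.57 and 1.32. The remaining libraries outside scramble held 1.06 to 1.16. Thinning kept or dropped whole peaks and never broke a wide peak, so it cannot show the breaks a shallow list would have.

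**Figure D4:**
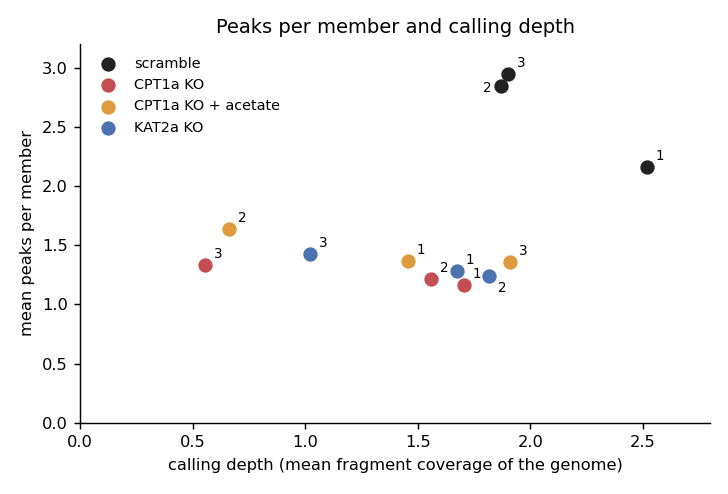
Mean number of peaks per member against calling depth (mean fragment coverage of the genome) for the 12 libraries, coloured by group and numbered by replicate. Scramble replicates 2 and 3 hold 2.84 and 2.95 peaks per member at depths of 1.87 and 1.90, where CPT1a_KO_acetate replicate 3 and KAT2a_KO replicate 2 hold 1.36 and 1.24.

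The breaks that made the difference were short. With peaks of a list at most 200 bp apart counted as 1, the members held 1.35, 1.91 and 1.96 peaks in scramble and 1.07 to 1.26 in the rest, and 608 regions met the rule, 407 of them members. With peaks at most 500 bp apart counted as 1, the members held 1.02, 1.15 and 1.15 peaks in scramble and 1.04 to 1.07 in the rest, and 27 regions met the rule, 11 of them members. Scramble replicate 1 then lay below all of the 9 others.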

How the data were processed

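H3K9ac ChIPmentation was analysed in 12 libraries of 4T1 spheroids, 3 per group. According to the methods, the authors trimmed reads, aligned them to mm10 with BWA and removed duplicates with Picard. Their processing notes also list Bowtie2 and MACS2, with no versions. Each deposited list was called on 1 library and gives, per peak, the authors' fold enrichment (a ratio to local background) and -log10 p and -log10 q values, not scaled between libraries. Spike-in chromatin was not used here, so total H3K9ac was not measured. Calling depth was recovered by inverting MACS2's formulas for peaks with -log10 p below 60, and was checked on simulated data. Annotation was GENCODE vM21 on GRCm38, the build of mm10. Members and lists were chosen with earlier results of these data known. Named were the 12 largest differences, up to 3 promoter members per list and 4 members at the threshold. Peaks outside chromosomes 1 to 19 and X (11 to 45 per list) were set aside. Python 3.11.15, scipy 1.17.1 and pysam 0.24.0 were used.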

Additional observations from a re-analysis of the deposited data

How the results depend on the processing

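Over all alternatives, 163 of 183 values kept their direction and their side of the threshold or stayed within 1.5 times; the tests between groups cannot pass at this size, so for them only the direction counted. The number of members was 27 with peaks within 500 bp merged, 608 with peaks within 200 bp merged, 161 at an equal calling depth of 0.55 and 99 with a difference of 2 or more, against 1750. It was 1265 with peaks of -log10 q of 5 or more, 1424 with regions merged at 100 bp overlap, 1246 to 1933 without single libraries and, chosen after seeing the data, 2292 without the 3 libraries of lowest calling depth, 1710 of them members of the full set.

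Peaks per member in KAT2a_KO minus CPT1a_KO turned to -0.00152 with peaks within 500 bp merged and to -0.00514 at equal depth. Covered share in KAT2a_KO minus CPT1a_KO_acetate ran from -1.72 to 5.39 without single libraries. The median rank in KAT2a_KO minus CPT1a_KO_acetate turned to -0.0173 at equal depth and to -1.02 when ranked by -log10 p, and ran from -0.88 to 0.407 without single libraries. The depth relation, a description, had an r of -0.661 with peaks of -log10 q of 5 or more and -0.667 with peaks within 200 bp merged. It was -0.408 with peaks within 500 bp merged and ran from -0.822 to -0.482 without single libraries. At equal depth r was -0.892, but there the thinned peak numbers were set against the original depths. Thinning takes more peaks from deeper lists, so a negative r is partly built in and nothing is read from this value. In each case the cause was not tested.

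Same-numbered libraries deviated from their group means with correlations of -0.162 to 0.193 over members, above 0.1 in 1 of 18 pairs, and 6 of 12 libraries correlated best with their own number, so the numbers were not taken to pair the samples. With a replicate block, the median rank in CPT1a_KO_acetate minus CPT1a_KO was the same -1.35, and an exact sign-flip permutation test gave p = 0.25, the smallest it can give, so the block could not make a call. Peaks below the threshold of a shallow list were not detectable at that depth.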
